A study of Mus musculus with 6 samples.

Results

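Iqcn, listed in the deposited tables as IQ motif containing N (Entrez 637079), lies among closely packed genes on mouse chromosome 8. The question was whether the higher Iqcn level seen after TP-18 was shared by the genes around it. The members were Iqcn and 9 genes named for their position: Gdf15, Pgpep1, Lsm4 and Jund on its upstream side and Pde4c, Rab3a, Mpv17l2, Ifi30 and Pik3r2 on its downstream side. All 10 were found by symbol among the 17191 genes of the tables, and all 10 passed the filter on low counts, which left 12721 genes. Iqcn was chosen because its level differed between the groups in these same libraries, so its difference is given as a description with no test. The neighbours were named by position, with earlier results of these data known.

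The libraries were made from subcutaneous tumours of CT26, a mouse colorectal carcinoma line, in BALB/c females 6 to 8 weeks old. Once tumours measured 100 to 200 mm3, the mice were given vehicle (3 libraries) or TP-18 (3 libraries; a code name, dosed orally at 50 mg/kg each day), over 3 weeks. The labels differ on the cells sequenced, which were flow-sorted CD11b+F4/80+CD206+ macrophages by the series design, CD11b+ cells selected on magnetic beads by the treatment protocol, and CT26 itself by the characteristics. No label ties a library to its own mouse, and p-values therefore measure only how these samples spread, which can be technical. In these bulk samples, fewer cells of a type and less RNA per cell cannot be told apart.

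IQ motifs are short helical stretches that bind calmodulin, the calcium sensor of the cell, and Iqcn is best known for a role in the making of sperm. Its neighbours have unrelated roles. Gdf15 encodes a secreted stress-induced cytokine and Jund a subunit of the AP-1 transcription factor. Pde4c encodes a phosphodiesterase that breaks down cAMP, and Pik3r2 a regulatory subunit of class IA phosphoinositide 3-kinase. Rab3a encodes a small GTPase of secretory vesicles and Lsm4 a subunit of the ring that binds U6 RNA and takes part in mRNA decay. Ifi30 encodes a lysosomal thiol reductase of antigen processing, Pgpep1 a peptidase that removes pyroglutamate from peptides, and Mpv17l2 a protein of the inner mitochondrial membrane.

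In RefSeq on GRCm38.p6, Iqcn spans chr8:70701321-70717650 on the plus strand. Jund ends 704 bases before it, and Lsm4, Pgpep1 and Gdf15 follow at gaps of 22.6, 40.9 and 68.8 kb. On the other side Pde4c starts 6.2 kb after the end of Iqcn, Rab3a 37.1 kb, Mpv17l2 41.0 kb, Ifi30 45.1 kb and Pik3r2 50.5 kb after it. Lsm4, Jund, Pde4c and Rab3a are on the strand of Iqcn, and the other 5 are on the opposite strand. All 10 are annotated as protein-coding there. The stretch from Gdf15 to Pik3r2 is 147.3 kb long and holds 11 genes of the tables. The one that is not among the members is Gm3336, a predicted gene on the plus strand between Iqcn and Pde4c, 844 bases after the end of Iqcn. In GENCODE M21 on the same build, no annotated transcript of Iqcn reaches another of these genes. Exonic bases are shared there by Rab3a and Mpv17l2 (29 bases, opposite strands), and by Jund with the antisense gene Gm11175 (877 bases), which is not a row of the tables. Ifi30 and Pik3r2 share 85 and 45 exonic bases with 6330537M06Rik, also not a row of the tables. No source used here says whether counting used strand, so reads in these stretches cannot be told apart between partners.

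The RefSeq promoter windows, 250 bases before to 50 bases after an annotated start, are shown for Iqcn, for the neighbours whose groups did not overlap (Jund, Rab3a and Pik3r2), and for Pde4c, which lies between Iqcn and Rab3a. Windows were found for 9 of the 10 members. Capitals mark matches on either strand to AP-1 (TGANTCA), CRE (TGACGTCA), CARE (TGATGNAA), the GC box (GGGCGG), the CCAAT box (CCAAT) and the TATA box (TATAAA). Each window is written 5′ to 3′ on the gene's own strand, and for Rab3a, which has more than one window, the first is shown. The start used for the Iqcn window lies inside the RefSeq span of the gene. In GENCODE M21 the annotated transcripts of Iqcn and Jund start at 70703457 and 70698949, outside the windows shown for them. The contents of these windows, and the gap between the genes, therefore hold for the RefSeq starts only.
Jund, chr8:70697489-70697788, plus strand: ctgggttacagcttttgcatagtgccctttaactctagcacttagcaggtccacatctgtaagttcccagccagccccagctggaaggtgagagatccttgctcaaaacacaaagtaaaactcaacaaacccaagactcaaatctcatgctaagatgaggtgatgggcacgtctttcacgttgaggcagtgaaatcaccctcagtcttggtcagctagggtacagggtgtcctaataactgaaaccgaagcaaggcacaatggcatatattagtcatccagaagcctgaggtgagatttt
Iqcn, chr8:70701775-70702074, plus strand: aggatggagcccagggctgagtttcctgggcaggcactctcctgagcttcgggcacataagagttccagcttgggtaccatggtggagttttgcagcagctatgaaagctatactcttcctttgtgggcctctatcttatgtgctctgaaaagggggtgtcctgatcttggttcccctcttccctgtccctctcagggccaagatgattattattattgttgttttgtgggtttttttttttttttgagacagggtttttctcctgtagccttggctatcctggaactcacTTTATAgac
Pde4c, chr8:70723814-70724113, plus strand: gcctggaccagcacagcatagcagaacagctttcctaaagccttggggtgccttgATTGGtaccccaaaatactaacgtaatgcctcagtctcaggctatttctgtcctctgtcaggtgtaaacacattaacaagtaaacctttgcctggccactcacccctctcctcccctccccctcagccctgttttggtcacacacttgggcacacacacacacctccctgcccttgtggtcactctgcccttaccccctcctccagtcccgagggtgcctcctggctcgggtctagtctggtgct
Rab3a, chr8:70754453-70754752, plus strand: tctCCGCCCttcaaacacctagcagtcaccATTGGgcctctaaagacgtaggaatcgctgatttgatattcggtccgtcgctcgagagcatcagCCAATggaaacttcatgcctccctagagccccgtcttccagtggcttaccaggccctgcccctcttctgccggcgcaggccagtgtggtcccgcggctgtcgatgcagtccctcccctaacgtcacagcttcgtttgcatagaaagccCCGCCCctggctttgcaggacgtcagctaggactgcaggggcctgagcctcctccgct
Pik3r2, chr8:70776663-70776962, minus strand: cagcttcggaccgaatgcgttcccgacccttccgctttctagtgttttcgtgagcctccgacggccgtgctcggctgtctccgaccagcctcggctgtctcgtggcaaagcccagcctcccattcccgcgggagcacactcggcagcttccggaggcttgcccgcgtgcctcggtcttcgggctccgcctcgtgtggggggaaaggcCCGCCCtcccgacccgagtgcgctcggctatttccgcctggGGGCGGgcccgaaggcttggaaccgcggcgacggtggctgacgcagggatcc
These 5 windows had little in common. The Iqcn window held 1 CpG and a GC content of 47.3%, against medians of 7 CpG and 52.7% over 32851 windows, and its only match was a TATA-type hexamer 42 bases after the start, on the reverse strand. Pik3r2 held 36 CpG and 2 GC boxes, and Rab3a 18 CpG, 2 GC boxes and 2 CCAAT boxes. Pde4c held 3 CpG and 1 CCAAT box, and Jund 3 CpG and no match. Over all windows, 35.7% held a GC box, 37.4% a CCAAT box and 13.6% a TATA hexamer. AP-1, CRE and CARE letters, found in 7.81%, 1.79% and 3.97% of all windows, were in none of the windows of the 9 members. A match of letters is a description of the window and not a binding site.

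Total counts were 16371128 to 17597645 per library, and factors from the trimmed mean of M values (TMM) ran from 0.924 to 0.962 in vehicle and 1.05 to 1.07 in TP-18 libraries. Levels below are CPM, that is counts scaled to the TMM-adjusted library size. Pairs of libraries differed by far more than sampling noise, with a chi-square per degree of freedom of 27.8 to 124 over genes, so none was treated as a copy. Vehicle 1 was nearer to TP-18 1 (40.4) and TP-18 3 (41.7) than to vehicle 2 (81.4) or vehicle 3 (57.9) by this measure. Over all 12721 genes the edgeR quasi-likelihood test called 14 genes (0.110%), 3 higher (0.0236%) and 11 lower (0.0865%), at a Benjamini-Hochberg adjusted p under 0.05. Groups of 3 did not overlap in 23.3% of genes, 11.6% higher and 11.7% lower in TP-18 libraries.

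Iqcn was low in vehicle libraries and about an order of magnitude higher after TP-18. Its counts were 65, 34 and 55 for vehicle 1, 2 and 3, and 589, 543 and 531 for TP-18 1, 2 and 3. As CPM these were 3.995, 2.14 and 3.64 against 31.8, 29.5 and 29.0. The 3 TP-18 libraries lay close together, with a coefficient of variation of 4.91% against 30.2% in vehicle, and every one was far above every vehicle library. The means were 3.26 ± 0.985 and 30.1 ± 1.48 CPM (SD, n = 3 each). This made a log2 fold change of 3.20 ± 0.25 (SE), or 9.21-fold. These values chose the gene. Ranked by fold change it was number 9 of the 12721 genes. Per length, Iqcn had 0.503 ± 0.157 FPKM in vehicle and 5.24 ± 0.218 FPKM in TP-18 libraries (SD, n = 3 each).

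None of the 9 neighbours passed the edgeR test (adjusted p = 0.15 to 0.982), where 0.110% of all genes were called. At an unadjusted p under 0.05 there were 2 higher, beside 7.56% of all genes, and 1 lower, beside 8.70%; in either direction this was 3 of 9 beside 16.3%. Groups did not overlap for the same number, Rab3a and Pik3r2 higher and Jund lower, beside the 23.3% of all genes given above. DESeq2, run as an alternative, called 2 of the 9, Rab3a higher (adjusted p = 0.0274) and Jund lower (adjusted p = 0.00276), where it called 4.54% of genes, 1.50% higher and 3.04% lower. The median log2 fold change of the 9 was -0.01, beside 0.02 over all genes. The intervals given below are 95% intervals of the log2 fold change, not adjusted for the number of genes. Among the 9, the highest upper bound was 2.86, for Rab3a, and the next was 1.88, for Pde4c.

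**Figure D1:**
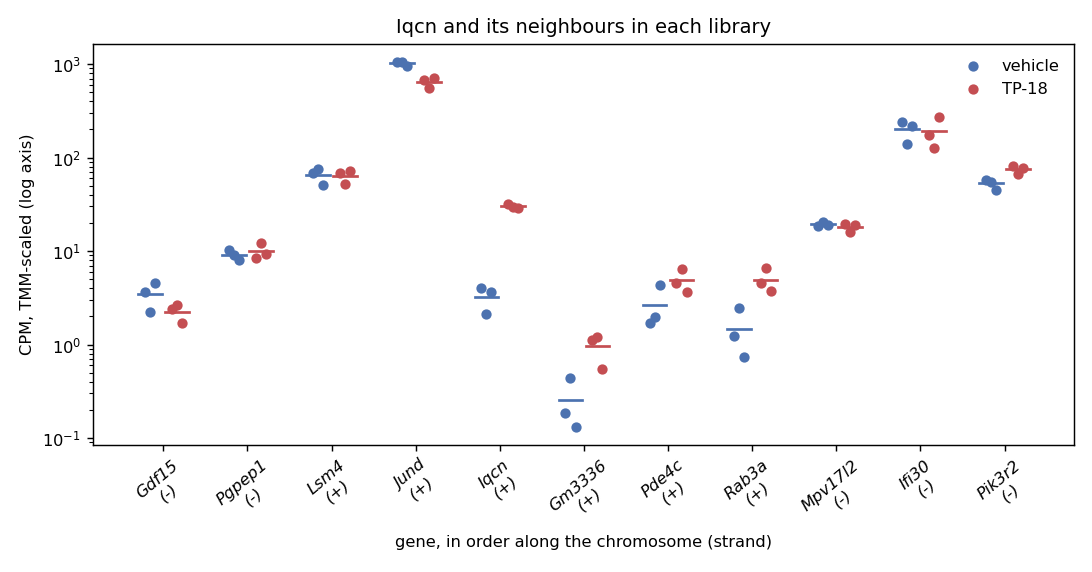
CPM on a log axis in each of the 3 vehicle (blue) and 3 TP-18 (red) libraries for the 10 members and Gm3336, in order along the chromosome with their strand; lines are group means. Iqcn has 2.14 to 3.995 CPM in the vehicle group and 29.0 to 31.8 CPM in the TP-18 group, while Lsm4, Mpv17l2 and Ifi30 overlap between the groups.

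On the upstream side, the nearest gene had a difference of the opposite sign. Jund was the most abundant member, at 1046, 1047 and 955 CPM in vehicle 1, 2 and 3 and 682, 551 and 714 CPM in TP-18 1, 2 and 3. All TP-18 libraries were below all vehicle libraries, with means of 1016 ± 53.1 and 649 ± 86.2 CPM (SD, n = 3 each). The log2 fold change was -0.65 ± 0.15 (SE) with an interval of -0.99 to -0.31, and did not pass in edgeR (adjusted p = 0.15). The neighbour 704 bases from Iqcn, on the same strand, had a negative difference under each of the 14 alternatives (-0.72 to -0.47).

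The other upstream genes overlapped between the groups. Lsm4 had 68.2, 74.6 and 51.5 CPM in vehicle 1, 2 and 3 and 68.2, 51.8 and 72.5 CPM in TP-18 1, 2 and 3. Its log2 fold change was -0.01 ± 0.19 (SE), with an interval of -0.45 to 0.43 and an edgeR adjusted p = 0.982. Pgpep1 had 10.3, 8.998 and 7.94 CPM in vehicle libraries and 8.52, 12.2 and 9.28 CPM in TP-18 libraries. This was a log2 fold change of 0.14 ± 0.22 (SE), interval -0.38 to 0.65. Gdf15, known as a marker of cell stress, was low in all libraries, at 3.63, 2.20 and 4.57 CPM in the vehicle group and 2.37, 2.66 and 1.69 CPM in the TP-18 group. Vehicle 2 lay below 2 of the 3 TP-18 libraries, and the log2 fold change was -0.63 ± 0.38 (SE), interval -1.51 to 0.26. The Iqcn value of 3.20 was above the interval of each of the 4 upstream genes. Because Iqcn was chosen for its difference in these libraries, this is a description and not a test.

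On the downstream side, the genes on the strand of Iqcn had positive differences, of which none passed in edgeR. Rab3a had 20, 39 and 11 counts in vehicle 1, 2 and 3 and 84, 120 and 69 counts in TP-18 1, 2 and 3. In CPM it had 1.23, 2.45 and 0.728 against 4.53, 6.51 and 3.77, so that all TP-18 libraries were above all vehicle libraries. The means were 1.47 ± 0.888 and 4.94 ± 1.42 CPM (SD, n = 3 each). The difference was 1.74 ± 0.48 (log2, SE) or 3.34-fold. The interval was 0.62 to 2.86, and the gene did not pass in edgeR (adjusted p = 0.197). Without 1 library at a time the log2 fold change ran from 1.402, without vehicle 3, to 2.31, without vehicle 2.

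Pde4c, which lies between Iqcn and Rab3a, had 28, 31 and 65 counts in vehicle 1, 2 and 3 and 84, 119 and 67 counts in TP-18 1, 2 and 3. In CPM these were 1.72, 1.95 and 4.30 against 4.53, 6.46 and 3.66. Vehicle 3 lay above TP-18 3, so the groups overlapped. The log2 fold change was 0.88 ± 0.43 (SE), interval -0.13 to 1.88, with an edgeR adjusted p = 0.36. It was positive under all 14 alternatives, and without vehicle 3 it was 1.39. Gm3336, the unlisted gene between Iqcn and Pde4c, had 3, 7 and 2 counts in vehicle 1, 2 and 3 and 21, 22 and 10 counts in TP-18 1, 2 and 3. Its groups did not overlap, but these counts are too few for the filter, so it was not tested. Fitted without the filter it had a log2 fold change of 1.89 ± 0.72 (SE), interval 0.28 to 3.49 and edgeR adjusted p = 0.313.

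By distance from Iqcn, these plus-strand genes were Gm3336 at 0.8 kb, Pde4c at 6.2 kb and Rab3a at 37.1 kb. Their log2 fold changes were 1.89 (fitted without the filter), 0.88 and 1.74. The intervals overlapped, and neither the differences between these genes nor an order by distance was tested. The order of the 3 libraries within a group was not tested either. TP-18 2 was the highest TP-18 library for Pde4c and Rab3a. For Iqcn it was TP-18 1, but its TP-18 libraries lay close together (coefficient of variation 4.91%). Among vehicle libraries, vehicle 2 was the lowest for Iqcn and the highest for Rab3a.

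Of the downstream genes on the opposite strand, Mpv17l2 and Ifi30 overlapped between the groups and Pik3r2 did not. Mpv17l2 had 18.4, 20.7 and 18.9 CPM in vehicle 1, 2 and 3 and 19.4, 16.01 and 19.1 CPM in TP-18 1, 2 and 3. Its log2 fold change of -0.09 ± 0.16 (SE) had an interval of -0.46 to 0.28. Ifi30 had 241, 141 and 217 CPM in the vehicle group and 175, 126 and 272 CPM in the TP-18 group. The lowest and the highest libraries were both TP-18, and the log2 fold change was -0.06 ± 0.31 (SE), interval -0.78 to 0.65. Pik3r2 had 58.2, 54.9 and 45.3 CPM in the vehicle group and 81.3, 66.5 and 77.5 CPM in the TP-18 group, every TP-18 library above every vehicle library. This was a log2 fold change of 0.51 ± 0.15 (SE), interval 0.16 to 0.85, with an edgeR adjusted p = 0.208 and a DESeq2 adjusted p = 0.0838. Rab3a and Mpv17l2, whose 3′ ends meet, thus had differences of 1.74 and -0.09.

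**Figure D2:**
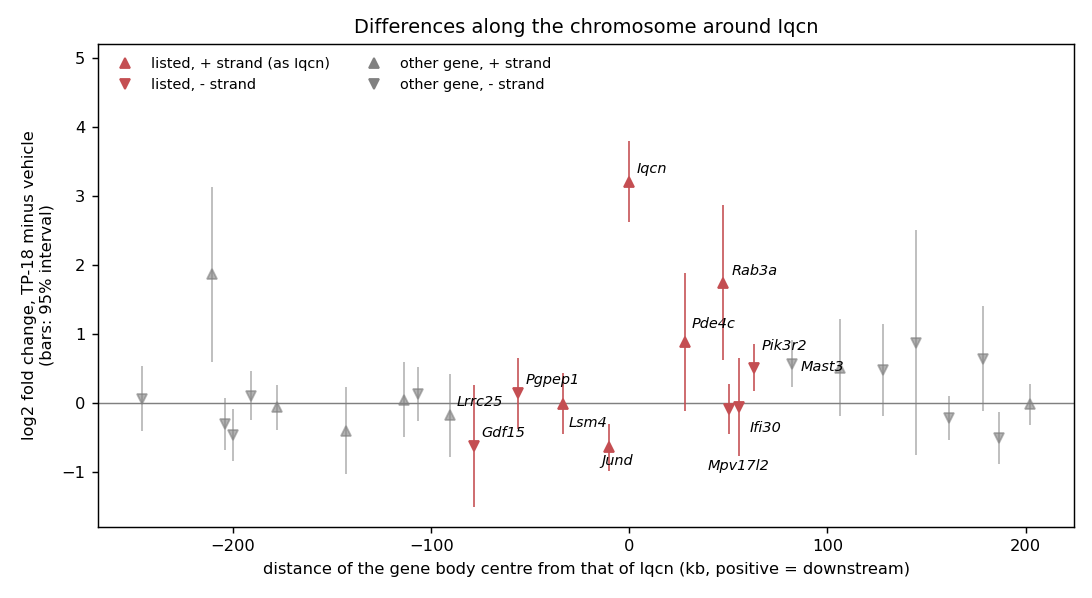
Log2 fold change, TP-18 minus vehicle, with its 95% interval (not adjusted for the number of genes) against the distance of each gene body's centre from that of Iqcn in kb, for tested genes within 250 kb; red marks the listed genes and the triangle's direction the strand. Iqcn stands at 3.20 between Jund at -0.65 and Pde4c at 0.88, with Rab3a at 1.74 further downstream. Iqcn was chosen for its difference in these libraries, so its interval is not a test.

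Just outside the listed stretch, Lrrc25 on the upstream side had 42.3 ± 9.75 CPM in the vehicle group and 37.4 ± 12.0 CPM in the TP-18 group, with overlapping groups and a log2 fold change of -0.18 ± 0.26 (SE). Mast3, a kinase gene on the downstream side, had 53.3 ± 8.39 and 79.0 ± 4.11 CPM (SD, n = 3 each). Its groups did not overlap, with a log2 fold change of 0.57 ± 0.15 (SE), and it did not pass in edgeR (adjusted p = 0.187). Of the other genes within 100 kb, Ssbp4 upstream and Il12rb1 downstream overlapped, with log2 fold changes of 0.12 ± 0.17 and 0.51 ± 0.30 (SE). All tested genes within 100 kb numbered 13 besides Iqcn, and none passed in edgeR, where 0.110% of all genes did. DESeq2 called 3 of them, Mast3 being the third, where it called 4.54% of all genes. Of these, 2 of 6 were positive on the upstream side (median -0.10) and 5 of 7 on the downstream side (median 0.51).

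Wider windows held no gene called in edgeR either, which is near the share over all genes. Within 250, 500 and 1000 kb of Iqcn, 27, 36 and 80 other genes were tested and 0 passed in edgeR, where 0.110% of all genes did. At an unadjusted p under 0.05 there were 7, 8 and 11, beside 16.3% of all genes. DESeq2 called 3 in each window, the same 3 as within 100 kb, beside 4.54% of all genes. Groups did not overlap in 33.3%, 30.6% and 22.5% of these genes, beside 23.3% of all genes. The medians were 0.04, 0.02 and 0.08, beside 0.02. Over the 685 tested genes of chromosome 8 without Iqcn the median was 0.05, and 22.6% had groups that did not overlap.

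The neighbours were set beside their paralogs, which lie elsewhere in the genome except where they are members. Lists of family members and partners were taken by role. For cAMP phosphodiesterases, Pde4a had 14.5 ± 2.95 and 24.2 ± 2.30 CPM in vehicle and TP-18 libraries (SD, n = 3 each), with groups that did not overlap and a log2 fold change of 0.74 ± 0.19 (SE). Pde4b, the most abundant of the family, had -0.45 ± 0.21 (SE) and Pde4d -0.07 ± 0.24 (SE), so that Pde4c at 0.88 was nearest to Pde4a. In the RAB3 family, Rab3b and Rab3c were too low to test, and Rab3d, at 37.3 ± 1.84 and 47.3 ± 6.79 CPM, had a log2 fold change of 0.34 ± 0.15 (SE) against 1.74 for Rab3a. Its relative in secretion Rab27b, low at 1.19 ± 0.438 and 2.39 ± 0.420 CPM (11 to 52 counts per library), had 1.00 ± 0.42 (SE). None of these passed in edgeR.

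The regulatory subunit genes of class IA phosphoinositide 3-kinase all had positive log2 fold changes, at 0.26 ± 0.28 (SE) for Pik3r1, 0.51 for Pik3r2 and 0.93 ± 0.32 (SE) for Pik3r3. The catalytic subunit genes Pik3ca, Pik3cb and Pik3cd had -0.02, 0.16 and 0.90. Among JUN genes, Jund at -0.65 was lower than Jun at -0.41 ± 0.18 (SE), whereas Junb was at -0.01 ± 0.14 (SE). Fosl1 and Fosl2, partners of JUN proteins in AP-1, had groups that did not overlap and log2 fold changes of -0.83 ± 0.15 and -0.50 ± 0.17 (SE). In that list of 9 AP-1 genes, 8 were negative, with a median of -0.41, or -0.32 without Jund. The 10 LSM genes had 3 positive and 7 negative values, with a median of -0.08 around Lsm4 at -0.01. Lsm10, a subunit of the U7 particle, had -0.49 ± 0.20 (SE) and groups that did not overlap. Of the MPV17 family, 2 of 4 were positive, with Mpv17 at 0.06 ± 0.15 (SE) and Mpv17l at 0.43 ± 0.31 (SE). Pgpep1l was too low to test. In none of these lists did a gene pass in edgeR.

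**Figure D3:**
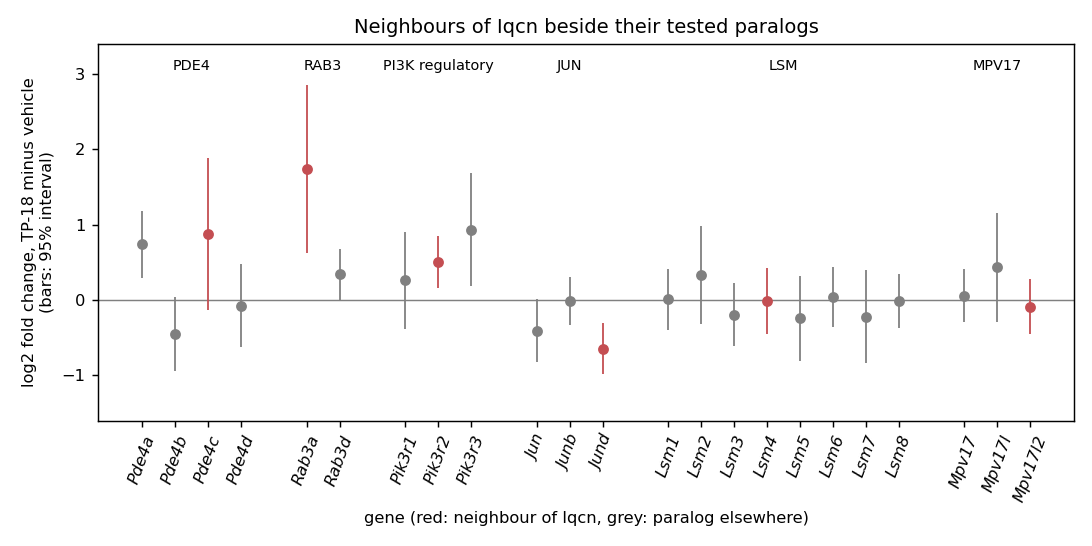
Log2 fold change, TP-18 minus vehicle, with its 95% interval (not adjusted for the number of genes) for neighbours of Iqcn (red) and their tested paralogs (grey), grouped by family. Rab3a at 1.74 stands above Rab3d at 0.34, while Pik3r2 at 0.51 lies between Pik3r1 at 0.26 and Pik3r3 at 0.93.

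Genes that share the IQ motif with Iqcn had differences of either sign. Of 35 listed, 26 were in the tables and 21 were tested, Iqcn included, with 12 positive and 9 negative. None of the other 20 passed in edgeR. Their median without Iqcn was 0.03, beside 0.02 over all genes. Iqgap1, a scaffold of the cell cortex and the most abundant of them, had 945 ± 173 and 873 ± 50.8 CPM (log2 fold change -0.11 ± 0.17, SE). Myo1c and Myo5a, unconventional myosins, had -0.23 ± 0.16 and 0.05 ± 0.22 (SE). Groups did not overlap in 4 of the 21, all higher, beside 11.6% of all genes. The 4 include Iqcn, which was chosen for its difference and raises this share. Besides Iqcn these were Iqce (0.59 ± 0.16), Iqgap3 (1.14 ± 0.31) and Iqsec2 (0.32 ± 0.15), none of which passed in edgeR. Of the genes of the binding partner, Calm2 and Calm3 had log2 fold changes of -0.16 ± 0.15 and 0.21 ± 0.20 (SE). The wider list of calmodulin and its kinases and phosphatases held 16 tested genes, 8 positive and 8 negative, with a median of 0.03 and none called. Groups did not overlap in 3 of the 16, all lower, beside 11.7% of all genes. Among them Camkk2, a kinase that activates other calmodulin-dependent kinases, had -0.76 ± 0.23 (SE) and groups that did not overlap, as did the low-count gene Calml4 (-1.64 ± 0.66, SE).

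Of 25 germ cell and sperm genes, 20 were in the tables and 3 passed the filter. Odf2, a component of sperm tails, was well detected at 54.9 ± 10.2 and 61.9 ± 18.3 CPM (SD, n = 3 each), with a log2 fold change of 0.17 ± 0.23 (SE). Tekt2 and Ddx4 were low, with 0.831 and 0.568 CPM on average in vehicle libraries and log2 fold changes of 0.41 ± 0.62 and -0.07 ± 0.56 (SE). The 6 germ cell markers Ddx4, Dazl, Sycp1, Sycp3, Prm1 and Tnp1 together summed to 0.676 to 1.20 CPM in the vehicle group and 0.539 to 0.977 CPM in the TP-18 group, with no count above 12.

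No gene of the stress and lysosomal lists passed in edgeR. Gdf15 and 12 other tested genes of stress responses had a median of -0.29, 8 being negative. Groups did not overlap for Atf4 (-0.40 ± 0.12), Chac1 (-0.82 ± 0.25), Cdkn1a (-0.47 ± 0.19) and Mdm2 (-0.65 ± 0.18), all lower. Ifi30 and the other 11 genes of lysosomal antigen processing had a median of -0.09, with 8 negative. The most abundant, Ctsl, Ctsb and Ctss, proteases of the lysosome, had -0.63 ± 0.27, -0.29 ± 0.13 and -0.65 ± 0.30 (SE). The PDE4, RAB3 and phosphoinositide 3-kinase lists had medians of -0.07, 0.23 and 0.26 without their member. Groups did not overlap in 4 of 10, 2 of 6 and 1 of 4 tested genes of the RAB3, kinase and PDE4 lists, and in 3 of 9, 1 of 10, 4 of 13, 1 of 12 and 1 of 4 of the AP-1, LSM, stress, lysosomal and MPV17 lists, beside 23.3% of all genes.

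Profiles most like that of Iqcn over the 6 libraries were sought among 12148 other genes with a mean of 1 CPM or more, by the root mean square distance between log2 CPM values centred on each gene's mean. The nearest were Cma1, a mast cell protease (distance 0.55), Crabp1, a retinoic acid binding protein (0.56), Fam71e2 (0.59), Tnc, the matrix protein tenascin C (0.60), and Stpg3 (0.61). All but Tnc had mean levels of at most 5.04 CPM in TP-18 libraries. Vehicle means of Cma1, Crabp1, Fam71e2 and Stpg3 were 0.126, 0.145, 0.251 and 0.581 CPM. These genes thus passed the cut of 1 CPM through their TP-18 libraries. The log2 CPM values used a prior count of 2, on which distances of such low genes depend. Fitted log2 fold changes of Cma1, Crabp1, Fam71e2, Stpg3 and Tnc were 4.71, 3.73, 3.29, 3.11 and 2.41. Tnc itself had 28.6, 18.7 and 10.5 CPM in vehicle 1, 2 and 3 and 97.7, 97.3 and 113 CPM in TP-18 1, 2 and 3. The measure includes the difference between groups for which Iqcn was chosen. Of the neighbours, Rab3a was nearest at 1.03, number 82 in this order, followed by Pde4c at 1.24 (number 350) and Pik3r2 at 1.385 (number 1137). Jund was the farthest, at 1.955 (number 11388).

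Levels per length placed Iqcn low among its neighbours in vehicle libraries. In deposited FPKM, the vehicle means were 332 for Jund, 192 for Ifi30, 29.3 for Lsm4, 16.3 for Mpv17l2 and 15.02 for Pik3r2. The remaining genes followed at 1.76 for Gdf15, 1.57 for Pgpep1, 0.835 for Rab3a, 0.624 for Pde4c and 0.503 for Iqcn. The last 3 did not differ beyond their spread, with SDs of 0.501, 0.324 and 0.157. In TP-18 libraries Iqcn, at 5.24 ± 0.218 FPKM, stood above Rab3a (3.17 ± 0.913), Pgpep1 (1.96 ± 0.383), Pde4c (1.30 ± 0.384) and Gdf15 (1.29 ± 0.282) (SD, n = 3 each). It was still below Mpv17l2 at 17.3 ± 1.74 FPKM and the 4 genes above that.

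Markers of other cell types were summed in each library. All 8 fibroblast and pericyte markers had positive log2 fold changes (median 0.82), the groups did not overlap in 6 (all higher, beside 11.6% of all genes), and their summed level was 742 to 1200 CPM in the vehicle group and 1487 to 1846 CPM in the TP-18 group. None of the 8 passed in edgeR. Their part in the differences of Iqcn, Rab3a and Pik3r2 was not tested. All 8 macrophage markers were detected, and Itgam, Adgre1 and Mrc1, the genes of CD11b, F4/80 and CD206, had 1012 ± 272, 192 ± 98.0 and 977 ± 412 CPM in vehicle and 890 ± 112, 191 ± 75.7 and 776 ± 136 CPM after TP-18 (SD, n = 3 each). Summed macrophage markers ran from 2946 to 5916 CPM in the vehicle group and 3354 to 4591 CPM in the TP-18 group (median log2 fold change -0.10), and carcinoma and epithelial markers from 344 to 531.5 and 247 to 512.5 CPM (-0.13). Krt20 supplied most of the carcinoma and epithelial sum, averaging 436 CPM (vehicle) and 415 CPM (TP-18). Each other marker of that list averaged at most 4.11 CPM in either group. Among those low markers only Cdh1 did not overlap, being higher after TP-18 (mean 2.24 CPM against 0.929 CPM). Endothelial markers ran from 31.5 to 154 and 92.7 to 166 CPM (0.70; Kdr, at 10.2 ± 1.03 and 23.2 ± 4.03 CPM, did not overlap and had an edgeR adjusted p = 0.0863), neutrophil markers from 52.2 to 127 and 50.5 to 98.4 CPM (0.13), T and NK cell markers from 4.91 to 23.4 and 3.91 to 16.9 CPM (-0.05), and B cell markers from 1.38 to 3.93 and 2.71 to 8.74 CPM (1.35). These sums overlapped between the groups. Among them 6 of 6 endothelial and 2 of 2 tested B cell markers were positive, 3 of 8 macrophage, 4 of 5 neutrophil, 2 of 7 T and NK cell and 1 of 4 epithelial markers, and Ly6g and Trac were not analysed here. Groups did not overlap in 1 of 8 macrophage markers, Cd68, lower after TP-18 (mean 292 CPM against 409 CPM in vehicle libraries). The same held for 1 of 7 T and NK cell markers, Cd4, higher after TP-18 (mean 2.38 CPM against 0.652 CPM). Both stand beside 23.3% of all genes, and neither gene passed in edgeR. The part of these markers in the results was not tested.

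**Figure D4:**
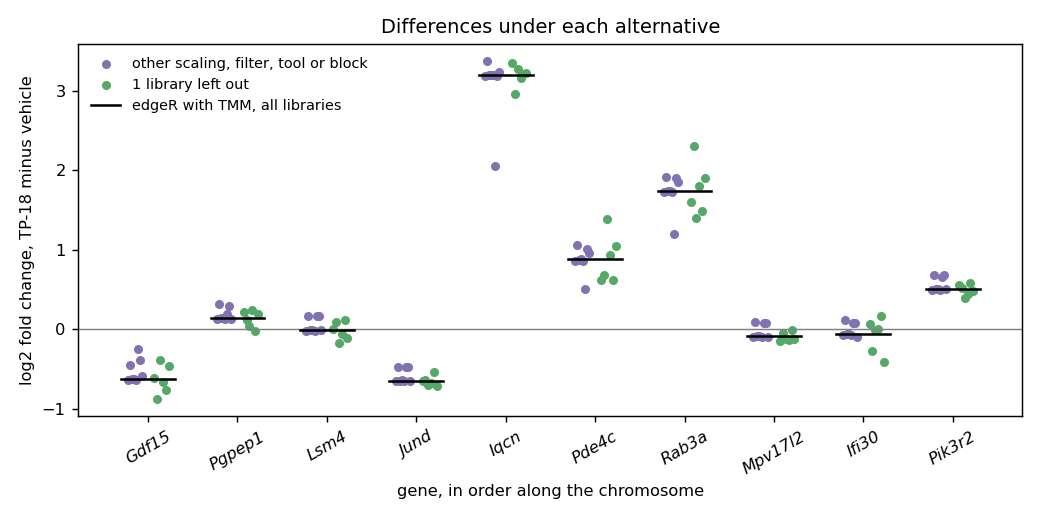
Log2 fold change, TP-18 minus vehicle, of each member under edgeR with TMM factors (black line), under 8 other choices of scaling, filter, tool, unit or block (purple) and with each of the 6 libraries left out (green). Rab3a, Pde4c and Pik3r2 stay above 0 and Jund and Gdf15 below 0 in all of these, while Lsm4, Mpv17l2, Ifi30 and Pgpep1 lie on both sides of 0.

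The signs of the small differences depended on the scaling. With library totals in place of TMM, the median of all genes moved up by 0.18, and Lsm4, Mpv17l2 and Ifi30 became positive at 0.16, 0.09 and 0.11. Rab3a, Pde4c and Pik3r2 were then at 1.92, 1.06 and 0.68, and Jund at -0.47, and the groups of Rab3a, Pik3r2 and Jund still did not overlap. On that scale groups did not overlap in 23.5% of genes higher and 4.76% lower. The edgeR test then called none of the 9 neighbours, beside 0.0314% of all genes, 0.0236% higher and 0.00786% lower. It also called none of the 9 without the filter, beside 0.157% of all genes (0.0407% higher and 0.116% lower), and none with the replicate number as a block, beside 0.0236%, all of them higher.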

How the data were processed

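Messenger RNA was measured in 3 vehicle and 3 TP-18 libraries. The authors deposited raw counts per gene and a table of FPKM values for 17191 genes. The tools were HTSeq, HISAT2 and fastp and the build GRCm38, per the submitters' processing notes; their versions and the annotation release were not given in the sources used here. Each deposited FPKM is its count over the library total and 1 length per gene.

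The quasi-likelihood test of edgeR 4.0.16 (R 4.3.3), without covariates, was applied to the counts after filterByExpr (minimum count 10, minimum total 15) and TMM scaling, with Benjamini-Hochberg adjustment over 12721 genes and a threshold of 0.05. Standard errors are the absolute log2 fold change over the square root of F, and 95% intervals use the test's degrees of freedom. The script was tested on simulated data. Positions came from RefSeq (GRCm38.p6) by Entrez identifier for 17072 genes, and exon overlaps from GENCODE M21. Depth limits the low genes most: intervals cover both counting error and spread between libraries.

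Members and lists were chosen with earlier results of these data known. Named genes were the members, other genes within 100 kb, paralogs, up to 3 abundant members of each list and the 5 nearest profiles; further list members whose groups did not overlap were chosen after their values were seen. Alternatives were RLE factors, library totals, other filters, DESeq2 1.42.0, limma 3.58.1 on log2(FPKM + 1) and log2(FPKM + 0.1), a replicate block and each library left out. Chosen after seeing the data were GENCODE positions for the windows. Some genes are not reported here.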

Additional observations from a re-analysis of the deposited data

How the results depend on the processing

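Counts of called genes, 3 higher and 11 lower with TMM and all libraries (0.110% of 12721), moved with the method, and the cause was not tested. Calls near Iqcn numbered 0 in all edgeR and limma fits. These fits called few or no genes anywhere, so a count of 0 near Iqcn carries little information. DESeq2 called 187 genes higher and 379 lower (4.54% in either direction), and 2 of the listed neighbours and 3 genes within 100, 250, 500 or 1000 kb. Without the low count filter 7 were higher and 20 lower, limma called 1 and 1 on log2(FPKM + 1) and also 1 and 1 on log2(FPKM + 0.1), and library totals left 1 lower. Leaving out 1 library at a time gave 0 to 3 higher and 0 to 5 lower: 3 and 5 without vehicle 1, 1 and 0 without vehicle 2, and 0 and 0 without any of the other 4. Neighbours called were 0 throughout, which was fixed in advance in the 4 fits that called no gene at all. With a replicate block 3 genes were higher and 0 lower, with Rab3a at 1.85 (edgeR adjusted p = 0.14). Samples with the same number shared only that number: their deviations from the group means correlated across genes at 0.16, 0.39 and -0.15, and vehicle 1 correlated best with TP-18 3 (0.50). The Iqcn log2 fold change was 2.06 on log2(FPKM + 1), where the pseudocount exceeds its vehicle level, and 2.96 to 3.36 with 1 library left out. GENCODE positions, chosen after seeing the data, changed no count of calls near Iqcn. Rab3a, Pde4c and Gm3336 rest on 2 to 120 counts per library, and their intervals are wide.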
